A study of Homo sapiens with 6 samples.

Results

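The microRNA genes described here were those that read brightly on expression arrays of LP-1 cells, an established human multiple myeloma line. A gene was included where a probe set carried 1 gene symbol of the kind MIR followed by a number (or MIRLET7), was not named as a host gene, and had a mean of at least 7 over the 6 arrays on the deposited log2 scale; the brightest probe set stood for each symbol. The members were thus chosen by their measured mean level, and the rule took 85 of the 1470 microRNA symbols on the array (5.78%). The probe sets are gene-level clusters read from total RNA, so a value may reflect the primary transcript or a host transcript and is not a measure of the mature microRNA.

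The 6 arrays fell into 3 groups of 2, described by the labels as biological replicates. L.A. cells (long-term acidification) and S.A. cells (short-term acidification) were grown at an extracellular pH, pHe, of 6.8, against 7.4 for Ctrl cells. All groups had RPMI-1640 medium with 15% serum and 23.8 mM NaHCO3. The time label was 9 months for L.A. cells, 2 weeks for S.A. cells and 9 months for Ctrl cells, so S.A. and Ctrl cells differed in culture time as well as in pHe. Another label gave 8 to 10 weeks for L.A. cells where the design text gives 8 to 10 months, and the S.A. period was given as 2 to 3 or 2 to 4 weeks. All arrays come from 1 cell line, and no label says whether the replicates were kept as separate cultures, so p-values measure the spread between these samples.

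MicroRNAs are short RNAs that pair with messenger RNAs through a seed near their 5′ end and lower the yield of protein. Their genes are copied into long primary transcripts, and many lie inside the introns of other genes and are copied together with that host. DROSHA and DGCR8 cut out a hairpin, XPO5 carries it to the cytoplasm, DICER1 trims it to the mature length and the Argonaute proteins hold the product. Among those known from blood cells are miR-142, the miR-181 family and the relatives of the miR-17 cluster, while many of the genes in the set have no settled function.

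The 3 MIR550A genes, copies on chromosome 7, were the members called both between S.A. and Ctrl cells and between L.A. and S.A. cells. MIR550A1 and MIR550A2 owe their mean of 7 to their high S.A. values, so that their place in the set is not independent of these differences. Their hairpins are shown because the copies are near-identical, which bears on what each probe set can tell apart; capitals mark the mature arms that the table of sequences gives for each gene (RefSeq, GRCh38.p14).
MIR550A1: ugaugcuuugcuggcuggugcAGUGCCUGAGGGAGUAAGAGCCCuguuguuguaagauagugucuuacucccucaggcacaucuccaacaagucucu
MIR550A2: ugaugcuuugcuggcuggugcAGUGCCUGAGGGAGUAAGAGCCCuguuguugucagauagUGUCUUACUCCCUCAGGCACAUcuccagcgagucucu
MIR550A3: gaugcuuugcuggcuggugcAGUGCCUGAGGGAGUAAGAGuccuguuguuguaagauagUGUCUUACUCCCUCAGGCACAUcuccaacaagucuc

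In GRCh38.p14 they lie at chr7:30289794-30289890 on the plus strand (MIR550A1), chr7:32732981-32733077 on the plus strand (MIR550A2) and chr7:29680734-29680828 on the minus strand (MIR550A3). No source used here names the build of the array itself. Over hairpins of 97, 97 and 95 bases, MIR550A1 shared 94 identical bases with MIR550A2 and 94 with MIR550A3, and MIR550A2 shared 91 with MIR550A3. Levels of the single copies may therefore be uncertain, and how far their probe sets share probes was not tested.

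The mature forms of the called genes that have one in the table are given next, with the seed, bases 2 to 8, in capitals. The 5p arms of all 3 MIR550A genes share 1 seed, and so do the 3p arms of MIR550A2 and MIR550A3. The MIR550A1 hairpin holds the same 3p sequence, in small letters above because the table gives no 3p arm for that gene.
hsa-miR-550a-5p: aGUGCCUGagggaguaagagccc
hsa-miR-550a-3-5p: aGUGCCUGagggaguaagag
hsa-miR-550a-3p: uGUCUUACucccucaggcacau
hsa-miR-3192-5p: uCUGGGAGguuguagcaguggaa
hsa-miR-3192-3p: cUCUGAUCgcccucucagcuc
hsa-miR-885-5p: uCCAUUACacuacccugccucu
hsa-miR-885-3p: aGGCAGCGggguguaguggaua
hsa-miR-6815-5p: uAGGUGGCgccggaggagucauu
hsa-miR-6815-3p: uGGCUUCUcuugcacacccag

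For MIR4496 the table holds the hairpin, 61 bases at chr12:108635810-108635870 on the plus strand.
MIR4496: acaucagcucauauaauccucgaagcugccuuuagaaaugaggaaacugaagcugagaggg

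Of the 85 genes, 76 had at least 1 mature sequence in the table and 53 a hairpin. Shared seeds were few. MIR1285-1, MIR1285-2 and MIR6860 had CUGGGCA in common, and 3 further pairs shared a seed (MIR1268A with MIR1268B, MIR548AE2 with MIR548AJ2, and MIR6819 with MIR6877). The members' hairpins had a median GC content of 57.6% (n = 53), against 50.0% over the other 1137 microRNA hairpins on the array, and a median length of 74 bases against 81. Probe brightness can depend on base composition, and its part in the choice of members was not tested.

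The levels of the 85 genes ran over a wide range. Among the brightest, MIR4426, MIR6088, MIR3654 and MIR3135A overlap or lie within other genes. Other genes with a mean of 10 or more lie between genes, namely MIR3929, MIR3159, MIR3135B, MIR1285-2, MIR4521 and MIR1273C. Values on the deposited scale reached about 20, and no detection calls were used here, so a level says how brightly a probe set read and cannot be set against the level of another probe set. The median over the 85 genes was 8.09, against 3.71 over all microRNA symbols and 3.77 over all 135574 probe sets, a gap that the limit on the mean set in advance. By mean, 16 genes stood at 10 or more, 29 from 8 to under 10 and 40 under 8.

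MIR4426 had the highest mean, 18.75, with 18.67 and 18.76 in L.A. cells, 19.02 and 18.43 in S.A. cells and 18.65 and 19.00 in Ctrl cells. The 3 groups overlapped. It overlaps RPS27AP5, a ribosomal protein pseudogene, and a further probe set of the same symbol, whose ID names another chromosome, read 17.93.

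MIR6088 read 17.76 and 17.99 in L.A. cells, 18.36 and 18.19 in S.A. cells and 17.88 and 17.81 in Ctrl cells. S.A. arrays were highest, by 0.43 over Ctrl (limma adjusted p = 0.116, not called). The gene lies opposite ERCC1, a DNA repair gene that read 7.42 on average.

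MIR548N read 18.42 and 17.68 in L.A. cells, 17.62 and 17.89 in S.A. cells and 16.97 and 17.37 in Ctrl cells. Both Ctrl arrays lay below the other 4. Its further probe sets read 12.22 and 6.07, and the ID of the brightest names a chromosome other than that of the gene, so this level may not be that of MIR548N.

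MIR3654 read 15.49 and 15.98 in L.A. cells, 15.88 and 15.66 in S.A. cells and 16.16 and 15.91 in Ctrl cells, with L.A. and Ctrl arrays overlapping. It lies within CHCHD3, a mitochondrial inner membrane gene, at 13.68 on average. MIR3135A read 13.68 and 13.12 in L.A. cells, 13.37 and 13.33 in S.A. cells and 12.91 and 13.41 in Ctrl cells, all overlapping. Its host is KAT2B, a histone acetyltransferase gene, at 10.34.

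The other 11 genes at 10 or more were MIR1285-1, MIR3929, MIR6746, MIR3159, MIR3135B, MIR1285-2, MIR4521, MIR663A, MIR1273C, MIR4472-2 and MIR4496. At the lower end, the members just inside the limit were MIR1290 at 7.05, MIR885 at 7.04 and MIR550A2 at 7.02, and the genes just outside were MIR4436B2 at 6.96, MIR6090 at 6.96 and MIR4767 at 6.95. In 10 of the 85 genes at least 1 group mean lay under 7. They were MIR548AU, MIR550A1, MIR1279, MIR3198-1, MIR6858, MIR5684, MIR3143, MIR1290, MIR885 and MIR550A2, which passed the limit only through the groups where they were higher. For MIR550A2 the L.A. and Ctrl means, 6.02 and 6.46, were both under the limit, and it passed through its S.A. mean of 8.58.

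**Figure D1:**
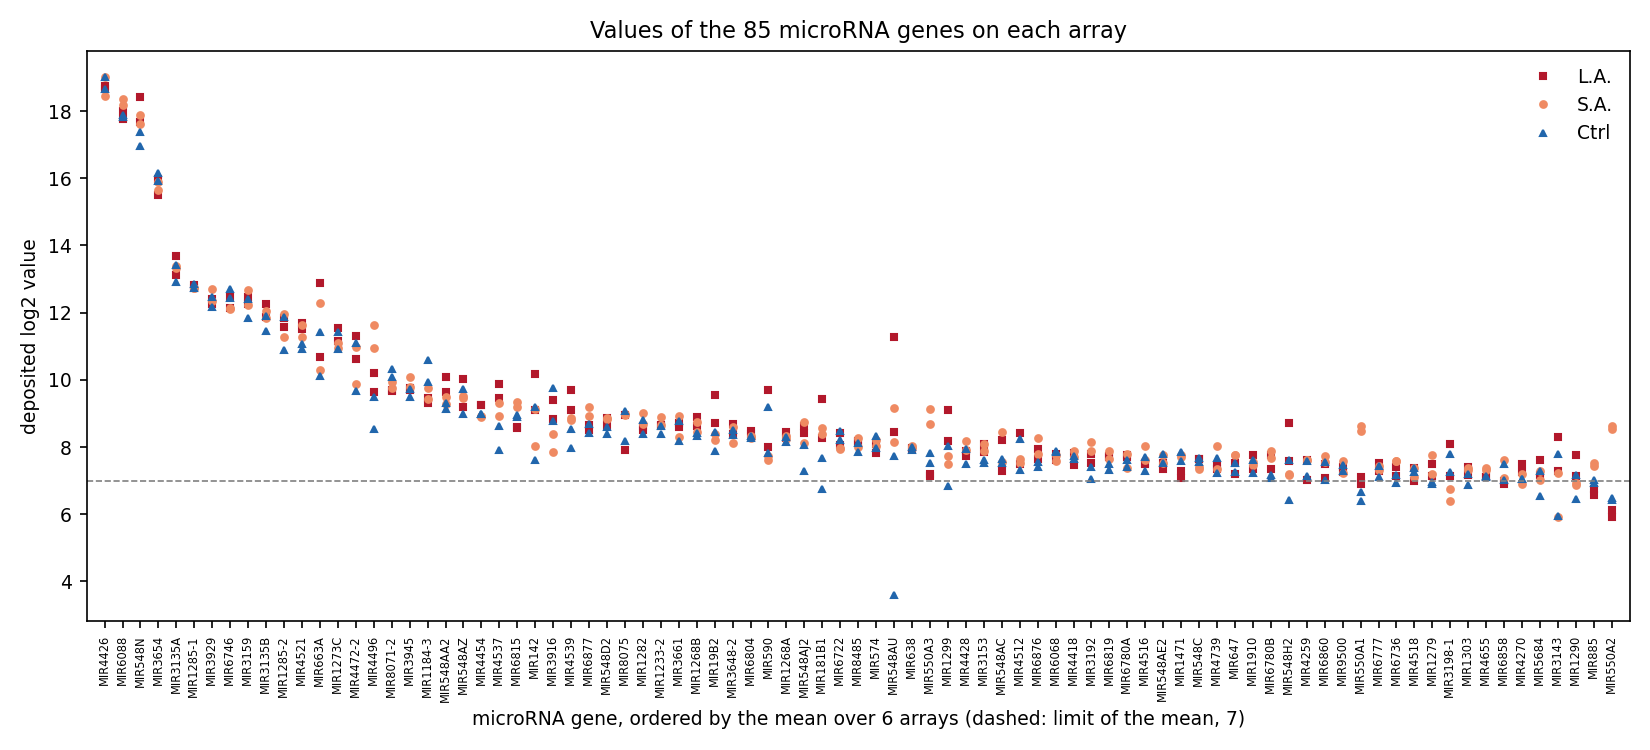
Deposited log2 value (vertical axis) of each of the 85 microRNA genes on each array, with genes ordered along the horizontal axis by their mean over 6 arrays. Squares are L.A. cells, circles S.A. cells and triangles Ctrl cells; 4 genes lie above 15 on every array, most of the rest between 7 and 10, and MIR550A1, MIR550A2 and MIR550A3 show S.A. arrays apart from the other 4.

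By position in the RefSeq gene table, 43 of the 85 genes lay inside another gene on the same strand, 18 lay between genes, and 9 lay only opposite a gene. For 8 the strand of the overlapping gene, and for 7 their own strand, was not given. The 18 between genes were MIR3929, MIR3159, MIR3135B, MIR1285-2, MIR4521, MIR1273C, MIR4454, MIR3916, MIR3648-2, MIR1268A, MIR1299, MIR6068, MIR4418, MIR548AE2, MIR1471, MIR4739, MIR3143 and MIR550A2. Chromosome 1 held 10 of the genes, and chromosomes 7 and 17 held 8 each. The names of 10 genes place them in the MIR548 family, a large primate family derived from a transposable element.

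For 4 members (MIR548N, MIR663A, MIR4454 and MIR548AU) the probe set ID names a chromosome other than that of the gene. None of these 4 was called in any comparison. Among all single-symbol probe sets matched by gene ID the share was 2.03%. MIR548N and MIR4454 had no matched gene ID and were placed by symbol, so the count and that share do not cover like probe sets. MIR4454 had 9 probe sets, among them 3 with the same values on every array at a mean of 9.05 and 3 at 9.00.

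Most of the 85 genes differed little between groups, and 7 were called in at least 1 comparison. Group means were compared with limma over all 21070 single-symbol genes with a mean at or above 3.77, and a gene was called at a Benjamini-Hochberg adjusted p under 0.05; all 85 members passed that filter because their limit was higher. Differences are given as log2 with the standard error (SE), and for called genes the adjusted p with replicate number as a block is given too, or the text says whether the call was lost. In bulk RNA, a lower level in each cell and fewer cells with the transcript cannot be told apart. With 2 arrays against 2, the smallest p that an exact permutation test allows is 0.333.

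In S.A. cells, set against Ctrl cells, 5 of the 85 genes rose and 0 fell: MIR550A1, MIR550A2, MIR550A3, MIR4496 and MIR3192. Over all genes tested 6.23% were called higher and 8.55% lower, and the members' 5.88% called higher is near that background. MIR550A1 and MIR550A2 reached the limit on the mean through their S.A. arrays, so this count is not independent of the choice of members. With the replicate block 4 were called, all higher, against 6.39% of all genes in either direction. Genes of any kind with a mean of at least 7 were called more often, 25% in either direction and 10.2% higher, and of the 698 microRNA genes tested 3.58% were called (21 higher and 4 lower).

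The median difference of the 85 genes was 0.19, with or without the MIR550A genes, against -0.04 over all genes, and 64 of them had a positive difference. Both S.A. arrays lay above both Ctrl arrays for 30 genes and below for 11, where the shares over all genes were 24.9% above and 32.3% below. Over the 698 microRNA genes tested, members included, these shares were 27.9% and 15.5%. An unadjusted limma p under 0.05 was reached by 20 genes (23.5%), against 30.8% of all genes. For 64 genes the difference was under 0.5 in size, and for 57 the 95% interval lay within -1 and 1.

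MIR550A2 read 8.62 and 8.54 in S.A. cells, against 6.48 and 6.43 in Ctrl cells. The difference was 2.12 (SE 0.14, 95% interval 1.77 to 2.48, limma adjusted p = 0.00209, and 0.00309 with the replicate block). The L.A. arrays, at 6.13 and 5.91, lay below both.

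MIR550A1 read 8.49 and 8.62 in S.A. cells, against 6.67 and 6.40 in Ctrl cells. It rose by 2.02 (SE 0.16, limma adjusted p = 0.00265, and 0.00441 with the replicate block). Its L.A. arrays, 6.91 and 7.11, stood between the other groups and overlapped neither.

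MIR550A3 read 9.12 and 8.68 in S.A. cells, against 7.54 and 7.81 in Ctrl cells, a rise of 1.22 (SE 0.20, limma adjusted p = 0.0145, and 0.0333 with the replicate block). The call was lost when all probe sets were tested (0.0531) and without Ctrl replicate 1 (0.0551); over 13 alternatives the limma adjusted p ran from 0.00947 to 0.0551. All 3 copies thus had both S.A. arrays above the other 4.

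MIR4496 read 11.64 and 10.94 in S.A. cells, against 8.55 and 9.48 in Ctrl cells. It rose by 2.28 (SE 0.39, 95% interval 1.32 to 3.24, limma adjusted p = 0.0170, and 0.0162 with the replicate block). The spread within Ctrl, an SD of 0.66, was among the wider ones, but the groups did not overlap. The call was lost when all probe sets were tested (adjusted p = 0.0565, in a range of 0.0109 to 0.0565 over 13 alternatives). MIR4496 lies within LOC105369968, a long noncoding RNA gene that had no single-symbol probe set, and its neighbours SELPLG, a selectin ligand gene, at 0.23, and CORO1C, a gene for an actin-binding coronin, at 0.22, were not called.

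MIR3192 read 8.16 and 7.87 in S.A. cells, against 7.04 and 7.41 in Ctrl cells. The difference of 0.79 (SE 0.20) had a limma adjusted p of 0.0485, and 0.120 with the replicate block. It was not called in 12 of 13 alternatives, among them each with 1 array left out, over which the adjusted p ran from 0.0338 to 0.189. Its host POLR3F, a subunit gene of RNA polymerase III, stood at -0.52 (limma adjusted p = 0.0629), the opposite sign.

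In L.A. cells, set against Ctrl cells, 0 of the 85 genes were called by limma, with or without the replicate block. The background was low as well: 1.61% of all genes were called higher, 1.59% lower, and 1.32% in either direction with the block. An unadjusted limma p under 0.05 was reached by 18 members (21.2%), against 20% of all genes. The median difference was 0.15, against -0.03 over all genes, and both L.A. arrays lay above both Ctrl arrays for 26 genes and below for 10 (22.3% and 28.1% of all genes). Over the microRNA genes tested, members included, these shares were 24.5% and 17.6%.

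The estimates of the 3 MIR550A genes differed in sign here, and none was called. MIR550A1 stood at 0.48 (95% interval 0.08 to 0.88, limma adjusted p = 0.184), MIR550A2 at -0.43 (-0.79 to -0.08, adjusted p = 0.175) and MIR550A3 at -0.51 (-0.99 to -0.03, adjusted p = 0.228). These intervals come from the fit without the block, whose SEs are too small. With the replicate block the limma adjusted p was 0.505, 0.522 and 0.507 in that order, so the signs are uncertain. MIR4496 stood at 0.90, with a limma adjusted p of 0.278 and an interval from -0.07 to 1.86.

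The member nearest to a call was MIR4537, in the immunoglobulin heavy chain locus, which plasma cells transcribe strongly. It read 9.87 and 9.46 in L.A. cells, 9.32 and 8.94 in S.A. cells and 7.90 and 8.62 in Ctrl cells, and L.A. arrays lay above all others. The difference over Ctrl was 1.41, not called (limma adjusted p = 0.0637). In the same locus MIR4539 stood at 1.14 (adjusted p = 0.0861 by limma) and MIR8071-2 at -0.54 (0.127), so the 3 members there did not share a sign. MIR4537 and MIR4539 lie on the minus strand between IGHM and IGHJ6, and MIR8071-2 on the plus strand between IGHG4 and IGHG2. A second MIR4537 probe set read 8.92 and 8.64 in L.A. cells, 8.64 and 7.90 in S.A. cells and 6.85 and 7.74 in Ctrl cells, lower but in the same order of groups.

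Between the acid groups, with L.A. set against S.A. cells, 5 of the 85 genes fell and 0 rose: the 3 MIR550A genes, MIR885 and MIR6815. The members' 5.88% called lower is near the share over all genes, of which 8.70% were called higher and 7.24% lower, and with the block 8.65% in either direction; with the block 3 members were called, the MIR550A genes. MIR550A1, MIR550A2 and MIR885 reached the limit on the mean through their S.A. arrays. The count called lower is thus not independent of the choice of members. This comparison shares its S.A. arrays with the S.A. to Ctrl comparison, so the fall of the MIR550A genes and their rise rest in part on the same arrays. The median difference was -0.01, against 0.01 over all genes, and 17 genes lay above and 22 below without overlap (30.1% and 27.3% of all genes). An unadjusted limma p under 0.05 was reached by 13 members (15.3%), against 30.7% of all genes. Of genes with a mean of at least 7, 26.8% were called in either direction and 12% lower.

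MIR550A2 fell by 2.56 (SE 0.14, limma adjusted p = 0.000569, and 0.000639 with the replicate block). MIR550A3 fell by 1.73 (SE 0.20, adjusted p by limma 0.00414 and 0.00667), and its L.A. arrays read 7.21 and 7.13. MIR550A1 fell by 1.54 (SE 0.16, limma adjusted p = 0.00326 and 0.00803). These 3 calls held in each of 13 alternatives.

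MIR885, a gene within ATP2B2, read 6.76 and 6.57 in L.A. cells, 7.42 and 7.53 in S.A. cells and 6.94 and 7.03 in Ctrl cells. The L.A. minus S.A. difference was -0.81, with no overlap (SE 0.14, limma adjusted p = 0.0163, and 0.0765 with the replicate block). ATP2B2, which codes for a plasma membrane calcium pump, read 4.35 on average and stood at 0.32 (limma adjusted p = 0.338).

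MIR6815, within COL18A1, a collagen gene that fell below the filter, read 8.60 and 8.57 in L.A. cells, 9.20 and 9.35 in S.A. cells and 8.89 and 8.96 in Ctrl cells. The L.A. minus S.A. difference was -0.69 (SE 0.14, limma adjusted p = 0.0224, and 0.118 with the replicate block). Both calls were also lost when all probe sets were tested, without S.A. replicate 2 and without either L.A. array, and that of MIR6815 without S.A. replicate 1 too. Over 13 alternatives the adjusted p ran from 0.0107 to 0.101 for MIR885 and from 0.0151 to 0.120 for MIR6815.

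**Figure D2:**
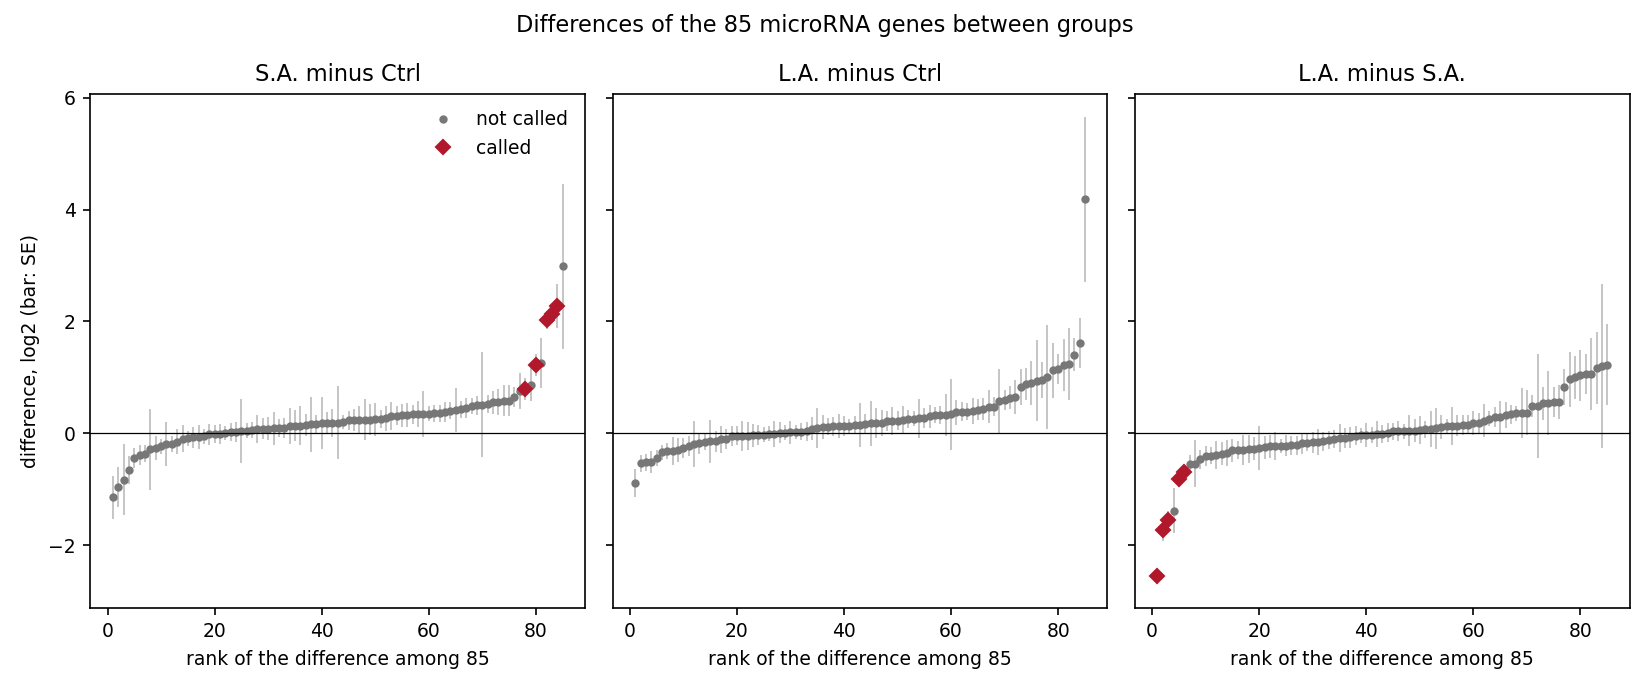
Difference between groups on the log2 scale (vertical axis) for the 85 microRNA genes, each panel ordered by its own differences along the horizontal axis; bars are SEs from limma without the block. Diamonds mark the genes called, 5 in S.A. minus Ctrl, 0 in L.A. minus Ctrl and 5 in L.A. minus S.A.; the gene with the widest bar in the left and middle panels is MIR548AU.

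Of the genes that hold or flank the MIR550A copies, those with a probe set of their own were called in no comparison, apart from LINC00997. MIR550A1 lies within ZNRF2, a ubiquitin ligase gene that read 8.63 and 8.49 in L.A. cells, 8.45 and 8.32 in S.A. cells and 8.22 and 8.52 in Ctrl cells. Its S.A. minus Ctrl difference was 0.02 (SE 0.16, limma adjusted p = 0.961). The pseudogenes ZNRF2P1 and ZNRF2P2, which lie next to MIR550A2 and MIR550A3, stood at 0.07 (SE 0.15) and 0.23 (SE 0.13) and were not called. For ZNRF2P2 the S.A. arrays, at 13.01 and 13.03, nonetheless lay above all other arrays, which read 12.77 to 12.82. MIR550A3HG, the host of MIR550A3, had no single-symbol probe set.

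LINC00997, a long noncoding RNA gene and the next gene after MIR550A2 in the table, was looked at after its values were seen. It read 12.07 and 12.10 in L.A. cells, 14.02 and 14.55 in S.A. cells and 12.60 and 12.21 in Ctrl cells, so both S.A. arrays stood above the rest. It rose by 1.88 in S.A. over Ctrl cells (SE 0.23, limma adjusted p = 0.00668, and 0.00915 with the replicate block) and fell by 2.2 in L.A. against S.A. cells (SE 0.23, adjusted p by limma 0.00307 and 0.00333). The L.A. minus Ctrl difference was -0.32 and not called.

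The related genes MIR550B1 and MIR550B2, which have the same positions as MIR550A1 and MIR550A2 in the table, fell short of the level limit. MIR550B1, at 4.72 on average, was higher in S.A. than in Ctrl cells by 0.68 (limma adjusted p = 0.0443, and 0.148 with the replicate block). MIR550B2, at 4.70, stood at 0.65 (adjusted p = 0.108, limma), and in L.A. minus S.A. at -1.11 (limma adjusted p = 0.0239, and 0.0459 with the block). Whether their probe sets share probes with those of the MIR550A genes was not tested.

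**Figure D3:**
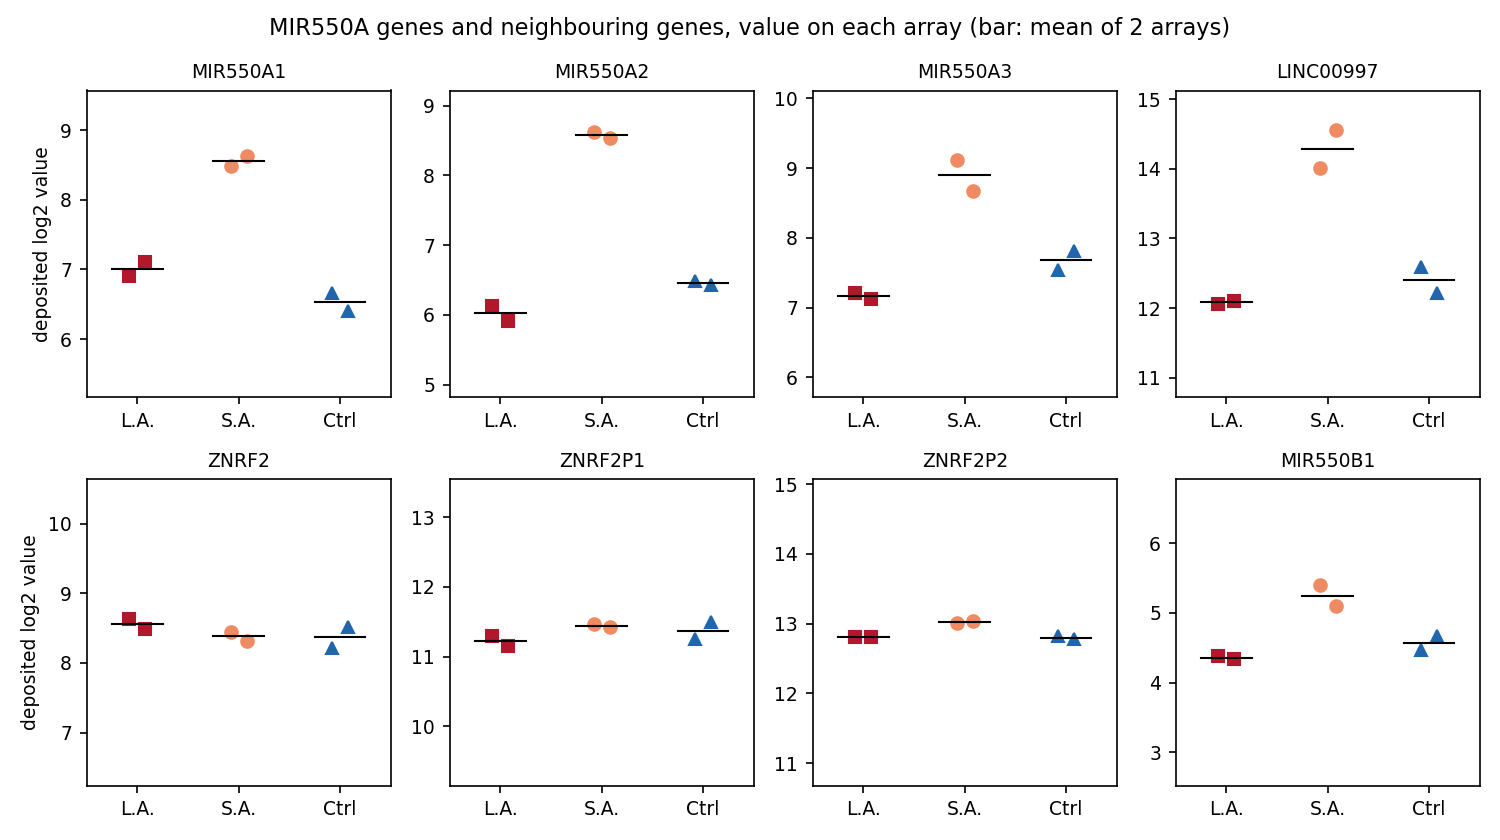
Deposited log2 value (vertical axes, each spanning the same range around the gene's mean) on each array for the 3 MIR550A genes, LINC00997, ZNRF2, 2 ZNRF2 pseudogenes and MIR550B1, by group along the horizontal axis. Bars are means of 2 arrays. Both S.A. arrays stand above the other 4 for the MIR550A genes, LINC00997, MIR550B1 and, by a smaller margin, ZNRF2P2. For ZNRF2 and ZNRF2P1 the Ctrl arrays overlap those of S.A. cells.

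For the members inside a host gene, in no pair were both the microRNA gene and its host called in the same comparison. Few joint calls were possible, because the called members with a tested host were MIR550A1, MIR3192 and MIR885 alone. The hosts of the called members MIR4496, MIR550A3 and MIR6815 were not tested. Of 43 such members, 40 had probe set and gene on the same chromosome; for 28 of these the host was tested, for 6 it was below the filter and for 6 it had no single-symbol probe set. Across the 28 pairs the differences had the same sign in 17 (S.A. minus Ctrl), 14 (L.A. minus Ctrl) and 14 (L.A. minus S.A.). Pearson's r across pairs was 0.23, 0.39 and 0.14 in that order and Spearman's rho 0.23, 0.20 and 0.07, given as a description over pairs that share the same 6 arrays.

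In S.A. against Ctrl cells 8 of the 28 hosts (28.6%) were called, 3 higher and 5 lower, against 14.8% of all genes and 25% of those with a mean of at least 7, and none of the microRNA genes inside them was; these hosts are named because they were called, after their values were seen. In L.A. against S.A. cells 5 hosts were higher and 2 lower (25%, against 15.9% of all genes and 26.8% of those with a mean of at least 7). In L.A. against Ctrl cells 0 were called by limma. CD58, an adhesion gene that holds MIR548AC, read 9.41 and 9.44 in L.A. cells, 14.46 and 13.49 in S.A. cells and 11.04 and 11.71 in Ctrl cells. It rose by 2.60 in S.A. over Ctrl cells (SE 0.36, limma adjusted p = 0.00986, and 0.00782 with the replicate block) and fell by 4.55 in L.A. against S.A. cells (adjusted p = 0.00149, and 0.000454 with the block), whereas MIR548AC stood at 0.41 and -0.26 and was not called.

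SREBF1, the sterol regulator gene that holds MIR6777, read 7.89 and 7.37 in S.A. cells, against 9.35 and 9.74 in Ctrl cells. It fell by 1.92 (SE 0.23, limma adjusted p = 0.00637, and 0.00862 with the replicate block), and MIR6777 stood at 0.10. CKS2, a cell cycle kinase subunit gene that holds MIR3153, read 11.87 and 10.90 in S.A. cells, against 12.96 and 13.53 in Ctrl cells. It fell by 1.86 (limma adjusted p = 0.0216, and 0.0241 with the replicate block), and MIR3153 stood at 0.40.

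The hosts MYH9, a nonmuscle myosin gene, at -0.84 and GTF3C5, a subunit gene of a polymerase III factor, at -1.14 were also called lower by limma (adjusted p = 0.0223 and 0.0322; 0.0827 and 0.0605 with the replicate block). Their members MIR6819 and MIR6877 stood at 0.36 and 0.50. CKS2 and GTF3C5 lie on chromosome 9 and MYH9 and BID on chromosome 22. EZH1, a Polycomb methyltransferase gene, rose by 1.28 and CCDC40, a cilia gene, by 1.12 (limma adjusted p = 0.0170 and 0.0320; 0.0350 and 0.0615 with the block), against 0.08 for MIR6780A and 0.23 for MIR1268B.

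A pair with larger differences of the same sign was MIR3198-1 and its host BID, a gene for a death-promoting BCL2 relative. BID read 8.08 and 8.24 in S.A. cells, against 9.86 and 10.04 in Ctrl cells, and fell by 1.79 (limma adjusted p = 0.00310, and 0.00584 with the replicate block). MIR3198-1 read 6.38 and 6.74 in S.A. cells, against 7.26 and 7.79 in Ctrl cells, a difference of -0.96 that was not called (limma adjusted p = 0.132). MIR3159, which lies between GTF2H1 and LDHA, the lactate dehydrogenase gene, stood at 0.32, while LDHA fell by 1.89 (limma adjusted p = 0.00294, and 0.00525 with the replicate block).

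**Figure D4:**
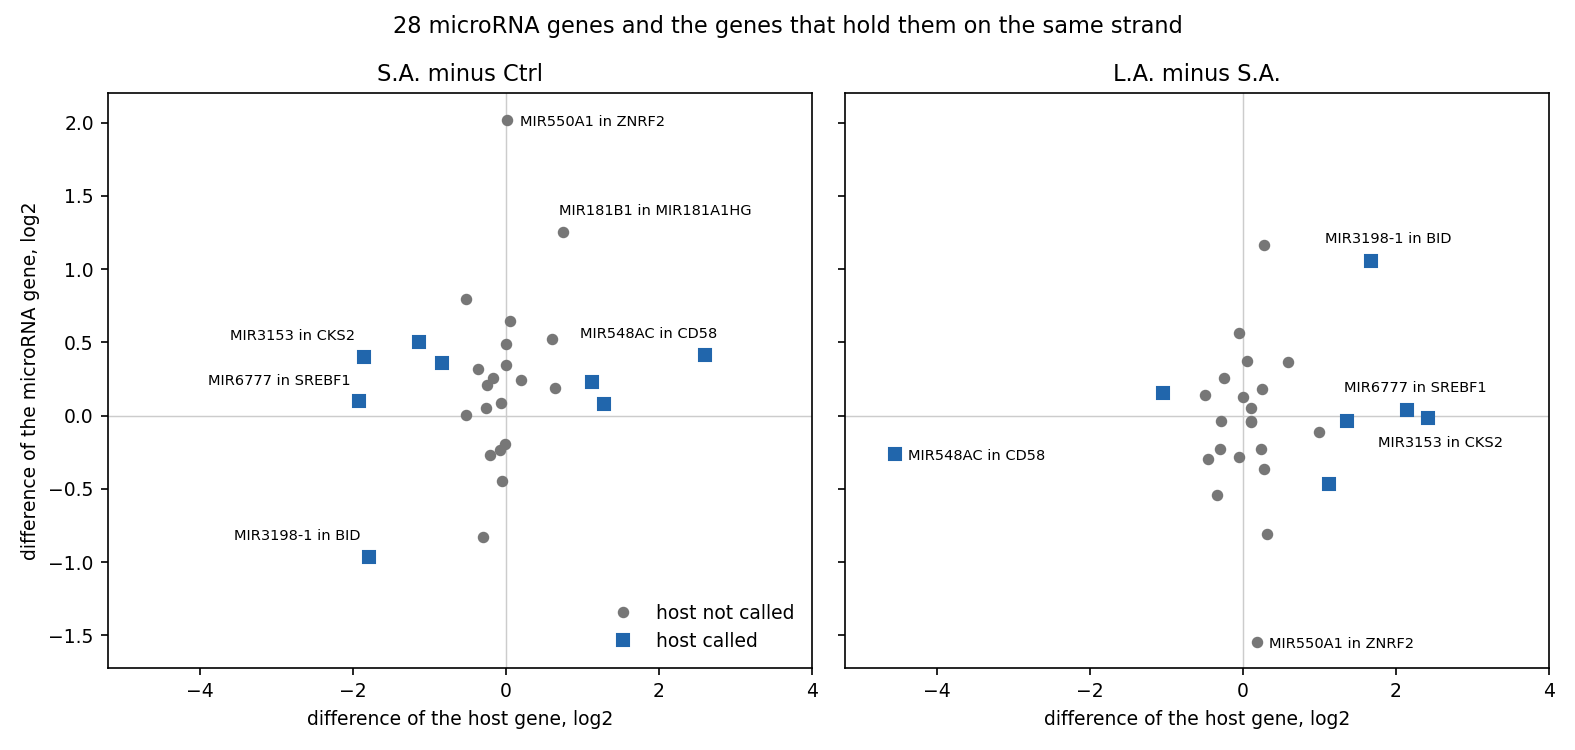
Difference of the microRNA gene (vertical axis) against that of its host gene (horizontal axis), both on the log2 scale, for 28 pairs in S.A. minus Ctrl (left) and L.A. minus S.A. (right). Squares are pairs whose host was called; CD58, SREBF1 and CKS2 lie far from 0 along the horizontal axis with their members near 0, and MIR550A1 lies far from 0 along the vertical axis with ZNRF2 near 0.

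Few of the microRNAs best known in blood cells were among the bright genes. MIR142, which is specific to blood cells, had 10.19 and 9.09 in L.A. cells, 9.12 and 8.04 in S.A. cells and 7.60 and 9.18 in Ctrl cells. The Ctrl arrays overlapped both acid groups, and neither acid group was called against Ctrl. TSPOAP1-AS1, which overlaps it on the other strand, read 9.16 on average and stood at 0.09 in S.A. minus Ctrl.

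MIR181B1, of a family that acts in lymphocyte development, had 9.42 and 8.27 in L.A. cells, 8.56 and 8.39 in S.A. cells and 6.75 and 7.69 in Ctrl cells. Both acid groups lay above Ctrl without overlap. The differences of 1.62 in L.A. and 1.26 in S.A. were not called (limma adjusted p = 0.121 and 0.119). Its host MIR181A1HG stood at 1.34 and 0.75, also not called (limma adjusted p = 0.0855 and 0.170).

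MIR19B2, a member of the miR-106a cluster, had 9.54 and 8.71 in L.A. cells, 8.40 and 8.20 in S.A. cells and 7.89 and 8.46 in Ctrl cells. L.A. arrays stood highest, by 0.95 over Ctrl, not called (limma adjusted p = 0.182). Of the other family lists, 0 of 8 let-7 genes, 0 of 3 genes of the miR-15 and miR-16 group, 0 of 6 of the miR-29 and miR-30 group and 0 of 4 of the miR-23, miR-24 and miR-27 group with a probe set of their own reached 7, with list medians of 3.78, 5.63, 3.41 and 3.10. The 10 MIR548 genes had medians of 0.26, 0.45 and 0.20 in S.A. minus Ctrl, L.A. minus Ctrl and L.A. minus S.A., and 0 were called by limma.

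Of 28 genes that make and use microRNAs 27 were tested, and limma called 5 in S.A. against Ctrl cells (18.5%, against 14.8% of all genes), 2 in L.A. against Ctrl cells (7.41%, against 3.2%) and 6 in L.A. against S.A. cells (22.2%, against 15.9%). The shares over genes with a mean of at least 7 were 25%, 5.23% and 26.8% in the same order. DICER1 and TUT4 were the ones called with the block. In S.A. against Ctrl cells, DICER1 read 7.47 and 7.75 in S.A. cells, against 8.75 and 8.54 in Ctrl cells. It fell by 1.04 (SE 0.18, limma adjusted p = 0.0159, and 0.0485 with the replicate block). SRRT, which links capped transcripts to DROSHA, at -0.84 and AGO1 at -0.63 were lower, and DIS3L2, an exonuclease of let-7 precursors, at 0.84 and AGO4 at 0.81 were higher, by limma without the block.

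In L.A. against Ctrl cells AGO3 (0.81) and AGO4 (0.88) were called higher by limma, and 0 genes of the list with the block. In L.A. against S.A. cells 5 were higher, SRRT, AGO1, AGO3, TUT4 and TNRC6B, and DIS3L2 was lower. Of these TUT4, which adds uridines to let-7 precursors, was called with the block, at 1.55 (limma adjusted p = 0.0147, and 0.0194 with the block). DROSHA, DGCR8, XPO5 and AGO2 were called in no comparison. The medians of the list were -0.18 (S.A. minus Ctrl), -0.04 (L.A. minus Ctrl) and 0.07 (L.A. minus S.A.).

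Of 26 tested genes from a list of known microRNA hosts, 3 were higher and 7 lower in S.A. against Ctrl cells (5 called with the block), 2 were higher in L.A. against Ctrl cells (0 with the block), and 9 were higher in L.A. against S.A. cells (8 with the block). These are 38.5%, 7.69% and 34.6% of the list, against 14.8%, 3.2% and 15.9% of all genes in either direction. Of genes with a mean of at least 7, 25%, 5.23% and 26.8% were called in these comparisons. MCM7, SREBF1 and PANK1 were among those lower in S.A. against Ctrl and higher in L.A. against S.A. cells, and no member of the bright set lies in MCM7 or PANK1. The medians of this list were -0.30, 0.29 and 0.44 in the order of the comparisons above.

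The 85 genes were uneven in how well their replicates matched. In 23 of them (27.1%) the 2 arrays of at least 1 group had an SD of 0.5 or more, against 12.8% of all genes tested, 20.3% of the 698 microRNA genes tested and 10.0% of genes with a mean of at least 7. Of these 23, 16 had replicate 1 above replicate 2 in L.A. and in S.A. cells and below it in Ctrl cells, and 0 had the reverse order in all 3 groups. Over all 85 genes the pattern held for 33 (38.8%) and its reverse for 13 (15.3%), against 19.4% and 15.3% over all genes tested and 20.1% and 18.6% over the microRNA genes tested. Replicate number held 1.24% of the members' sum of squares within groups, so replicate differences nearly cancel over the 3 groups. Signs that differ between groups are thus built in. What the arrays share in the order seen was not tested.

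MIR548AU, singled out for its spread, was the most variable member. The ID of its brightest probe set, the one used, names chromosome 2, whereas the gene lies on chromosome 9. A further probe set, whose ID names chromosome 9, read 5.04 on average, and its groups all overlapped. The values and differences given next may thus not be those of MIR548AU. The probe set used read 11.27 and 8.45 in L.A. cells, 9.16 and 8.15 in S.A. cells and 3.61 and 7.74 in Ctrl cells. Its differences of 4.19 in L.A. and 2.99 in S.A. over Ctrl were the largest of the 85 in those comparisons and were not called (limma adjusted p = 0.193 and 0.233). Ctrl replicate 1 stood below every other array, and without Ctrl replicate 2 both differences were called. MIR663A, MIR3143, MIR590, MIR142 and MIR4472-2 also had an SD of at least 0.9 in a group.

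The least variable members were MIR638, within 0.12 over the 6 arrays, MIR1285-1, within 0.12, and MIR6804, within 0.21. In 17 genes the 6 arrays spanned under 0.5 and in 56 under 1, and in 11 they spanned 2 or more. L.A. cells had the highest group mean in 37 genes and the lowest in 22, S.A. cells the highest in 36 and the lowest in 14, and Ctrl cells the highest in 12 and the lowest in 49. The share with Ctrl lowest was 57.6%, against 26.9% of all genes and 23.7% of those with a mean of at least 7. Both acid groups lay above Ctrl without overlap in 18 genes (21.2%) and below in 3 (3.53%), against 9.6% and 14.7% of all genes. The 698 microRNA genes tested, members included, leaned the same way. Their S.A. arrays lay above Ctrl without overlap in 27.9% and below in 15.5%, and their L.A. arrays in 24.5% and 17.6%.

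**Figure D5:**
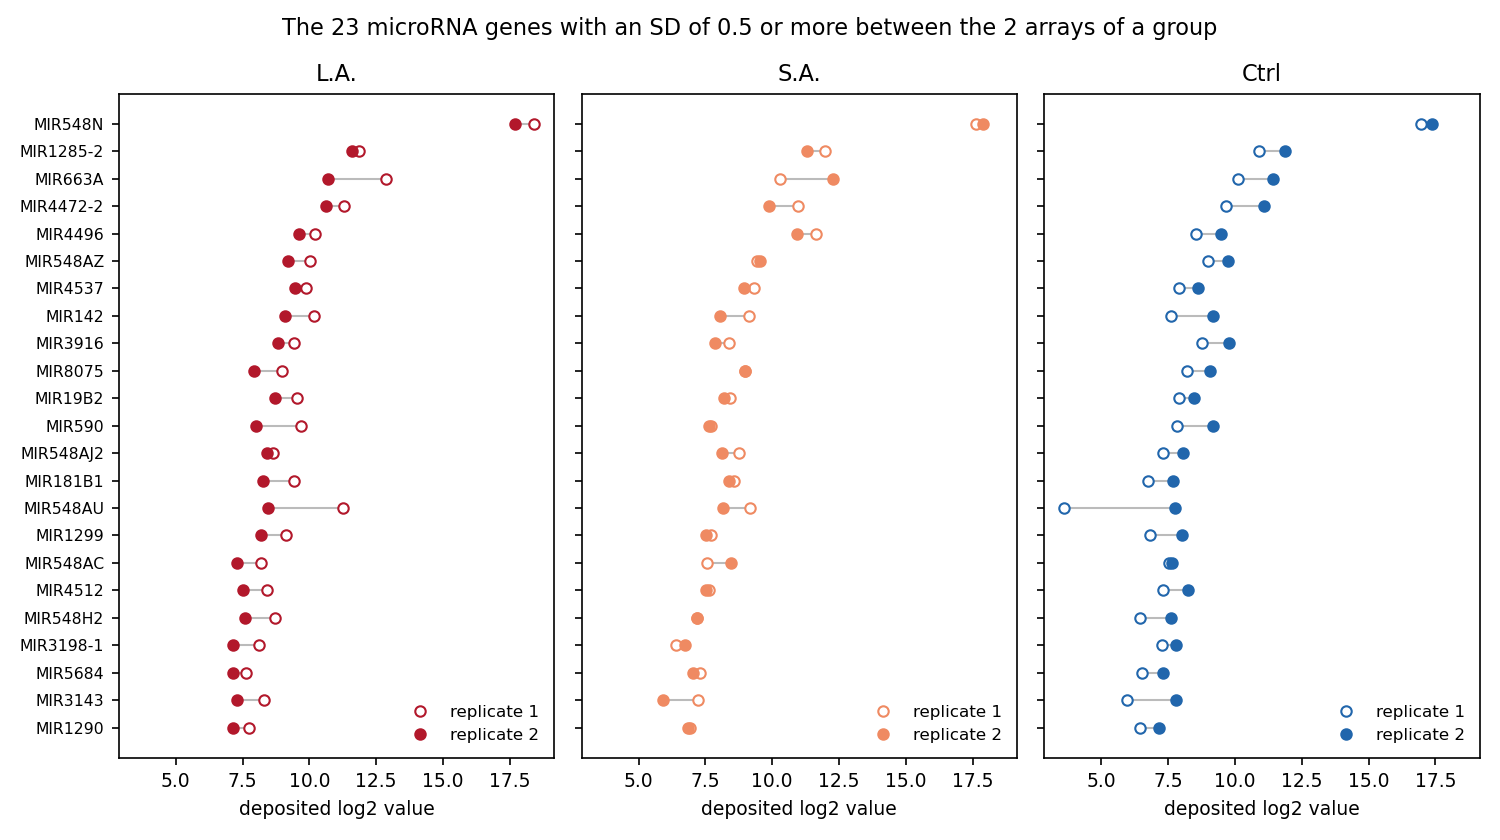
Deposited log2 values (horizontal axis) of the 23 microRNA genes whose 2 arrays differed by an SD of 0.5 or more in at least 1 group, in L.A. (left), S.A. (middle) and Ctrl cells (right). Open circles are replicate 1 and filled circles replicate 2; replicate 2 stands to the left in L.A. cells and to the right in Ctrl cells for all genes shown.

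As a check of the label, 8 of 8 plasma cell markers read at 7 or more, with summed levels of 115.5 to 115.8 in L.A. cells, 115.6 to 116.8 in S.A. cells and 114.1 to 114.4 in Ctrl cells. The sums hide changes of single markers. TNFRSF17 read 16.67 and 16.36 in S.A. against 14.14 and 14.30 in Ctrl cells. CD38 read 19.05 and 19.14 in L.A. against 17.53 and 17.36 in Ctrl cells, whereas SDC1 was lower in both acid groups than in Ctrl cells. Of the markers of other cell types, 0 of 4 for T and NK cells, 0 of 4 for monocytes and 0 of 3 for erythroid cells and platelets reached that level. Of the stromal and endothelial markers 2 of 4 did, COL1A1 at 7.32 and PECAM1 at 11.30 on average. The stromal and endothelial sums lay between 28.2 and 28.6 in L.A. cells, 28.3 and 29.1 in S.A. cells and 27.8 and 28.8 in Ctrl cells.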

How the data were processed

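The deposited table holds 1 value per probe set and array on a log scale taken here as log2; RMA and the Transcriptome Analysis Console made it, per the submitters' processing notes, with no version, and the sources used here name neither the log base nor the array's genome build. Symbols came from the platform annotation, updated through the RefSeq table of GRCh38.p14: of 135574 probe sets 36176 had 1 symbol, 1119 several and 98279 none, and 25516 single-symbol probe sets matched that table. Of 70 microRNA probe sets with several symbols, 10 had a mean of at least 7 and were not used.

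Differences were fitted in R 4.3.3 with limma 3.58.1 (3 group means over 6 arrays, empirical Bayes, two-sided, Benjamini-Hochberg over 21070 genes). The number of arrays limits the precision. Of the sum of squares within groups, replicate number held 1.18% (1.24% over the members), against 33.3% by its share of the degrees of freedom, for a reason that no source used here gives. About 2 residual degrees of freedom thus remain, and the fit without the block, which counts 3, gives p-values and SEs that are too small. Replicate differences correlated at -0.57 (Ctrl with S.A.), -0.47 (Ctrl with L.A.) and -0.41 (S.A. with L.A.). With so small a replicate term these correlations are negative by construction and cannot show whether the numbers pair samples; no label says that they do, and the fit without the block was kept as the main one. The alternatives were the block, moderation, filters, features, scaling, arrays fitted, level limit, probe set choice and leaving out each array.

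Named genes are those called, the 5 brightest, 3 on either side of the limit, family list members that passed, their hosts, called genes of the pathway list and DROSHA, DGCR8, XPO5, DICER1 and AGO2; others were named after their values were seen. The members and lists were chosen with earlier results of these data known.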

Additional observations from a re-analysis of the deposited data

Results flagged for a closer look

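The effects of the acid groups against the same Ctrl arrays differed by the test of the difference itself, L.A. minus S.A., for 5 of the microRNA genes, and for 3 of these 1 of the effects was itself called. MIR885 and MIR6815, called in L.A. minus S.A. alone, are the other two. MIR550A2 had L.A. values of 6.13 and 5.91 and S.A. values of 8.62 and 8.54, a difference of -2.56. MIR550A3 had L.A. values of 7.21 and 7.13 and S.A. values of 9.12 and 8.68, a difference of -1.73. MIR550A1 had L.A. values of 6.91 and 7.11 and S.A. values of 8.49 and 8.62, a difference of -1.54. In each, the S.A. effect was positive and called, and the L.A. effect was not called; the hairpins of the 3 genes are near-identical, and whether these are 3 separate observations was not tested.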

How the results depend on the processing

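Of 130 refits of the 10 called differences, 104 kept the call, 26 lost it and 0 changed sign. These refits are not all distinct. Leaving out either array of the group not compared repeats the fit of only the groups compared. The counts of alternatives given for single genes include these repeats, as do the upper ends over all genes below. A change of sign could not arise from leaving out an array, because the groups of these genes did not overlap. The count of bright microRNA genes called in S.A. minus Ctrl, 5, was 2 with all probe sets tested and 1 at a level limit of 8, and 4 to 5 with each array left out. In L.A. minus Ctrl, 0, it was 1 with a stricter filter of 5, 1 with only the groups compared (MIR4537 both times) and 1 at a level limit of 6, and 0 to 2 with each array left out; the 2 were MIR4537 and MIR548AU, without Ctrl replicate 2. In L.A. minus S.A., 5, it was 3 with the replicate block, 3 with all probe sets, 11 at a limit of 6 and 1 at 8, and 3 to 6 with each array left out, 3 without L.A. replicate 1. Over all genes the counts of 3113, 675 and 3360 became 1347, 279 and 1823 with the replicate block; all probe sets gave 1535 in S.A. minus Ctrl and 273 in L.A. minus Ctrl. With each array left out they ran from 1134 to 2486, from 195 to 674 and from 1503 to 2931, lowest without Ctrl replicate 2, L.A. replicate 1 and L.A. replicate 1; leaving out any array of the groups compared lowered them by over 1.5 times, except S.A. replicate 1 in L.A. minus S.A. Where an array is left out, the lone array of its group is assumed to vary like the others. The cause of these changes was not tested beyond the fewer arrays or genes fitted. The limits are 2 arrays a group, values with no detection calls, near-identical MIR550A hairpins whose shared probes were not tested, and host transcripts that the probe sets may read.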
